A study of Arabidopsis thaliana with 24 samples.

Results

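The transcripts of 5 genes of the Arabidopsis coumarin response to low Fe were followed across all 8 groups of the experiment. They are the enzyme genes F6'H1, S8H and CYP82C4 and the transcription factor genes MYB10 and MYB72, taken by name for their known roles, with earlier results of these data in view, and each was measured by 1 of 22746 probe sets of the ATH1 array. The 8 groups were roots and leaves of wild type (ecotype Columbia) and of nas4x-1, a quadruple T-DNA insertion line of the nicotianamine synthase genes in the same background, each at + Fe or - Fe. All plants had grown in hydroponic medium with 10 µM FeNa-EDTA for 4 weeks, and then stayed there (+ Fe) or went to medium with 0 µM (- Fe) for 7 days before harvest at an age of 5 weeks. Each group had 3 arrays from harvests in consecutive weeks, so that replicate numbers stand for weeks. The leaf samples were rosette leaves and the root samples whole roots, and for bulk tissue of this kind fewer cells of a type and less RNA per cell cannot be told apart.

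Plants other than grasses take up Fe by reducing it at the root surface, and Arabidopsis roots short of Fe secrete phenolic coumarins that dissolve and reduce Fe(III). F6'H1, a hydroxylase of feruloyl-CoA, opens the branch and leads to scopoletin. S8H hydroxylates scopoletin to fraxetin, and the cytochrome P450 CYP82C4 turns fraxetin into sideretin. MYB72 and MYB10 are closely related MYB factors that act in roots downstream of the bHLH factor FIT, and plants without both grow poorly where Fe is scarce. MYB72 is also needed for the expression of BGLU42, a glucosidase that frees coumarins for secretion, and both factors have been described as activators of NAS4.

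F6'H1 (AT3G13610) and S8H (AT3G12900) were matched through the platform table. CYP82C4 (AT4G31940), MYB10 (AT3G12820) and MYB72 (AT1G56160) were matched through gene names in the study's tables. The locus codes place F6'H1, S8H and MYB10 on chromosome 3, CYP82C4 on chromosome 4 and MYB72 on chromosome 1. In the RefSeq annotation of TAIR10.1 CYP82C4 lies next to its paralog CYP82C3, F6'H1 next to the polyamine transporter gene PUT4 and MYB10 next to PIE1. F6'H1 also belongs to the list of genes that the study selected on these arrays, so its responses here are not independent evidence. The other 4 genes are not on it, but they too were taken with earlier results of these data in view.

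Organ labels were checked against marker genes, and the genotype label against the nicotianamine synthase genes. Root hair genes (2 of 7 measured, EXPA7 and EXPA18) summed to signals of 148.9 to 451.1 in root groups and 4.296 to 25.69 in leaf groups. Leaf mesophyll genes (2 of 8 measured, RCA and SBPASE) summed to 5064 to 6741 in leaves and 33.15 to 112 in roots. NAS1 had signals of 8.8 to 31.24 in roots of nas4x-1 and of 94.15 to 943 in roots of wild type. NAS2, by contrast, read higher in roots of nas4x-1 (93.98 to 345) than in roots of wild type (25.5 to 167.6), with overlapping ranges, and in leaves at + Fe it read 92.28 to 109.1 against 3.217 to 13.42, without overlap. In week 1 CYP82C4 went against the Fe labels of wild type roots, with 108.3 at + Fe and 17.06 at - Fe, and BHLH039 went with them, with 61.06 and 481.6. Within a root group, arrays correlated with r from 0.9468 to 0.9875.

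For all 5 genes the mean of every root group was above that of every leaf group. In wild type at + Fe, however, the arrays of roots and leaves overlapped for S8H and MYB72. All 5 were highest, as a mean of 3 arrays, in roots of nas4x-1 at - Fe, followed by wild type roots at - Fe, nas4x-1 roots at + Fe and wild type roots at + Fe. This order of root means was the same for each gene, but neighbours in it were not always separate. Between nas4x-1 at - Fe and wild type at - Fe the arrays overlapped for 4 genes and were apart only for CYP82C4, and between wild type at - Fe and nas4x-1 at + Fe they overlapped for all 5. Between nas4x-1 at + Fe and wild type at + Fe they were apart for F6'H1, S8H, CYP82C4 and MYB72 and overlapped for MYB10. Without replicate 2 of the wild type roots at - Fe the order itself turned for 4 genes, since the mean of the remaining wild type arrays at - Fe was below that of nas4x-1 at + Fe for F6'H1 (1987 against 2165), S8H (127.3 against 211.4), CYP82C4 (27.53 against 145.4) and MYB72 (25.19 against 25.7). For CYP82C4 it was also below wild type at + Fe (53.65), and for MYB10 the order held (53.16 against 36.05). With that array set aside, the nas4x-1 arrays at - Fe were above the remaining wild type arrays at - Fe for all 5. That array was set aside after its values were seen, and it was the highest of its group for all 5 genes.

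**Figure D1:**
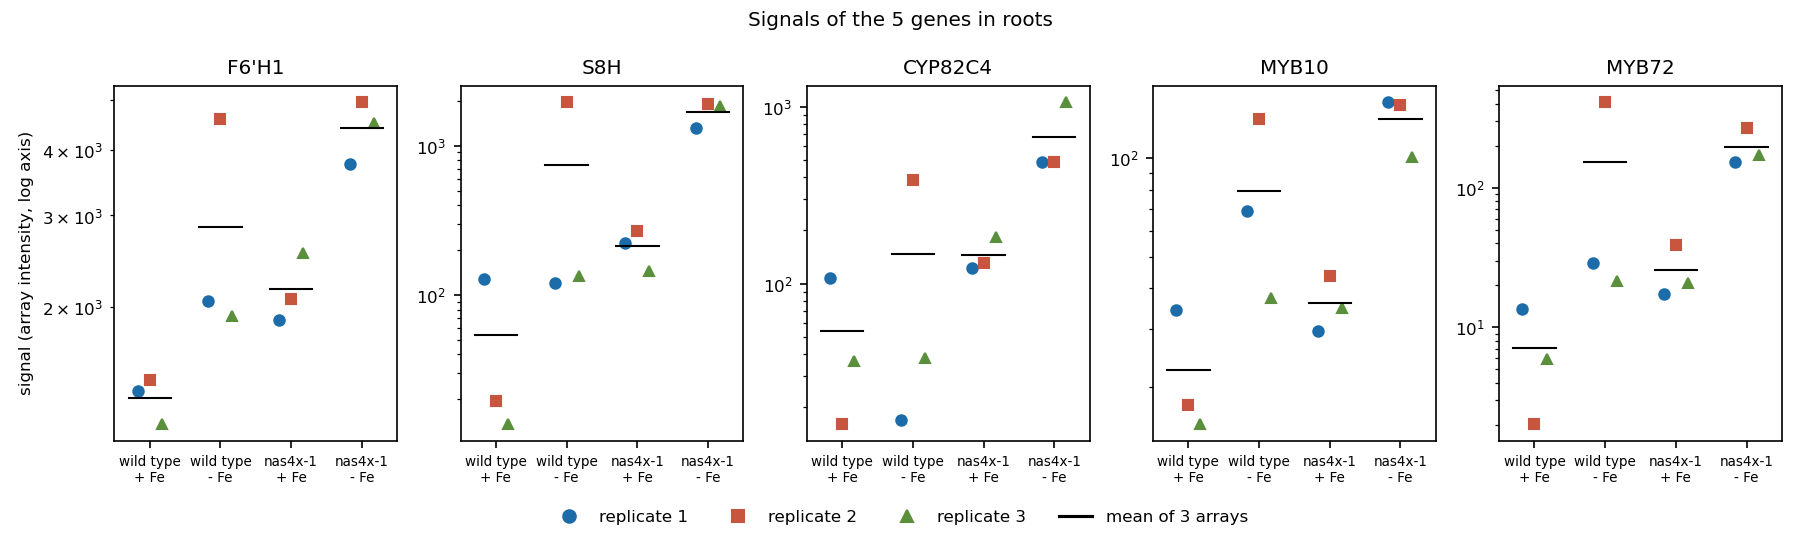
Signals of the 5 genes in each of the 12 root arrays (y axis, linear array intensity drawn on a log axis, with its own scale for each gene) by genotype and Fe supply. Points are arrays, marked by replicate number (harvest week), and bars are means of 3 arrays. In wild type at - Fe replicate 2 lies above replicates 1 and 3 for all 5 genes, at 1954 against 120.8 and 133.8 for S8H.

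Roots of nas4x-1 at - Fe had higher signals of all 5 genes than the + Fe roots of the same week, and the arrays of the 2 Fe supplies did not overlap for any of them. F6'H1 had signals of 1886, 2072 and 2539 in replicates 1 to 3 at + Fe and of 3775, 4954 and 4509 at - Fe (log2 fold change 1.02, SE 0.30). S8H had 221.6, 268.8 and 144 at + Fe and 1306, 1891 and 1843 at - Fe, the widest difference of the 5 (log2 fold change 2.92, SE 0.88). CYP82C4 had 122.2, 130.3 and 183.6 at + Fe and 486.8, 484.2 and 1061 at - Fe (log2 fold change 2.02, SE 0.78). The lowest - Fe array of each enzyme gene was thus well above its highest + Fe array.

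Of the factors, MYB10 had 29.56, 43.78 and 34.81 at + Fe and 148.2, 144.8 and 100.5 at - Fe (log2 fold change 1.49, SE 0.32). MYB72 had 17.43, 38.88 and 20.79 at + Fe and 154.3, 267.4 and 172 at - Fe (log2 fold change 2.36, SE 0.71). Separation without overlap toward - Fe was seen for 4.62% of all probe sets in this comparison. None of the 5 passed the test over all 22746 probe sets (limma, Benjamini-Hochberg adjusted p from 0.559 to 1), where 0.0132% of probe sets were called higher, although all 5 had an unadjusted p under 0.05, as had 2.04% of probe sets with a higher signal at - Fe. With only the 6 nas4x-1 root arrays in the fit, S8H and MYB72 passed (limma, adjusted p = 0.0231 and 0.044), and 0.0615% of probe sets were called higher.

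In roots of wild type, the difference between Fe supplies was uneven over the 3 weeks. F6'H1 had 1382, 1447 and 1190 at + Fe and 2054, 4589 and 1920 at - Fe (log2 fold change 0.97, SE 0.30), and MYB10 had 34.42, 17.59 and 15.37 at + Fe and 68.89, 131.3 and 37.43 at - Fe (1.22, SE 0.32). Both were higher at - Fe in all 3 weeks, without overlap. MYB72 had 13.4, 2.006 and 5.867 at + Fe and 29.07, 412.4 and 21.32 at - Fe (1.99, SE 0.71). Its arrays did not overlap either, but replicates 1 and 3 at - Fe stayed below the table's median signals, which ran from 37.8 to 38.03.

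The late enzymes S8H and CYP82C4 were not higher at - Fe in every week. S8H had 127.7, 19.6 and 13.62 at + Fe and 120.8, 1954 and 133.8 at - Fe (log2 fold change 2.69, SE 0.88). In week 1 the 2 arrays thus gave nearly the same signal, a difference of -0.07 on the log2 scale, against 5.80 in week 2 and 2.34 in week 3. CYP82C4 had 108.3, 16.02 and 36.66 at + Fe and 17.06, 386.2 and 38.01 at - Fe, with differences of -1.91, 3.66 and 0.04 (log2 fold change 0.59, SE 0.78). The Fe supplies overlapped for both genes, and replicate 1 was the highest + Fe array of each. Against + Fe replicates 2 and 3, S8H was higher in all 3 arrays at - Fe. For CYP82C4 the 17.06 of week 1 lay between them. Whether these genes differed from the others in their Fe response was not tested.

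Separation without overlap held for 3 of the 5 genes here, against 3.58% of all probe sets. None of the 5 passed the test (limma, adjusted p from 0.853 to 1), and 0.0% of probe sets were called higher. At an unadjusted p under 0.05, 4 of the 5 were higher, against 2.84% of probe sets. The interaction of genotype and Fe supply, which compares the Fe response of nas4x-1 with that of wild type, was between 0.05 and 1.43 on the log2 scale for the 5 genes and widest for CYP82C4 (1.43, SE 1.10). No gene passed it (limma, adjusted p = 1 for each, 0 with an unadjusted p under 0.05 against 0.809% of probe sets, and 0.0% of probe sets called higher).

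Replicate 2 of the wild type roots at - Fe stood apart for all 5 genes, farthest for S8H, MYB72 and CYP82C4. This array was singled out after its values were seen. Its S8H signal was 14.6 times the higher of the other 2 arrays of its group, its MYB72 signal 14.2 times and its CYP82C4 signal 10.2 times. F6'H1 was 2.23 times and MYB10 1.91 times the higher of the others. Of all probe sets, 0.0132% lay as far above both other arrays as S8H, 0.0308% as far as MYB72, 0.0572% as far as CYP82C4, 0.55% as far as F6'H1 and 1.11% as far as MYB10. For F6'H1 and MYB10 the array lay within the range of the nas4x-1 arrays at - Fe, for S8H and MYB72 above them and for CYP82C4 below them.

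BGLU42, the glucosidase gene tied to MYB72, had the same shape, with 111.6, 1532 and 149.5 in wild type at - Fe and 703.9, 1033 and 774.4 in nas4x-1 at - Fe. BHLH039, whose product works with FIT, was also highest in replicate 2, but less apart, at 1.4 times the higher of the other 2 arrays. It had 61.06, 24.72 and 27.11 in wild type at + Fe and 481.6, 675.8 and 172.5 at - Fe, higher at - Fe in all 3 weeks, by 2.69, 4.10 and 2.13 on the log2 scale. In week 1, then, the BHLH039 signal of wild type roots at - Fe was in the range of the nas4x-1 roots at - Fe (480.3, 620.4 and 475.8). S8H and BGLU42 in that array were near the + Fe array of week 1, and CYP82C4 was below it. That + Fe array, however, was the highest of its group for S8H and CYP82C4 (127.7 and 108.3). In the other + Fe arrays S8H was at 19.6 and 13.62, below its 120.8 at - Fe in week 1. CYP82C4 was at 16.02 and 36.66 there, against 17.06. The Fe transporter gene IRT2 was higher at - Fe by 2.11, 2.97 and 1.61. Replicate 2 of wild type at - Fe had a NAS1 signal of 943, far above the nas4x-1 arrays, as its wild type label says.

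**Figure D2:**
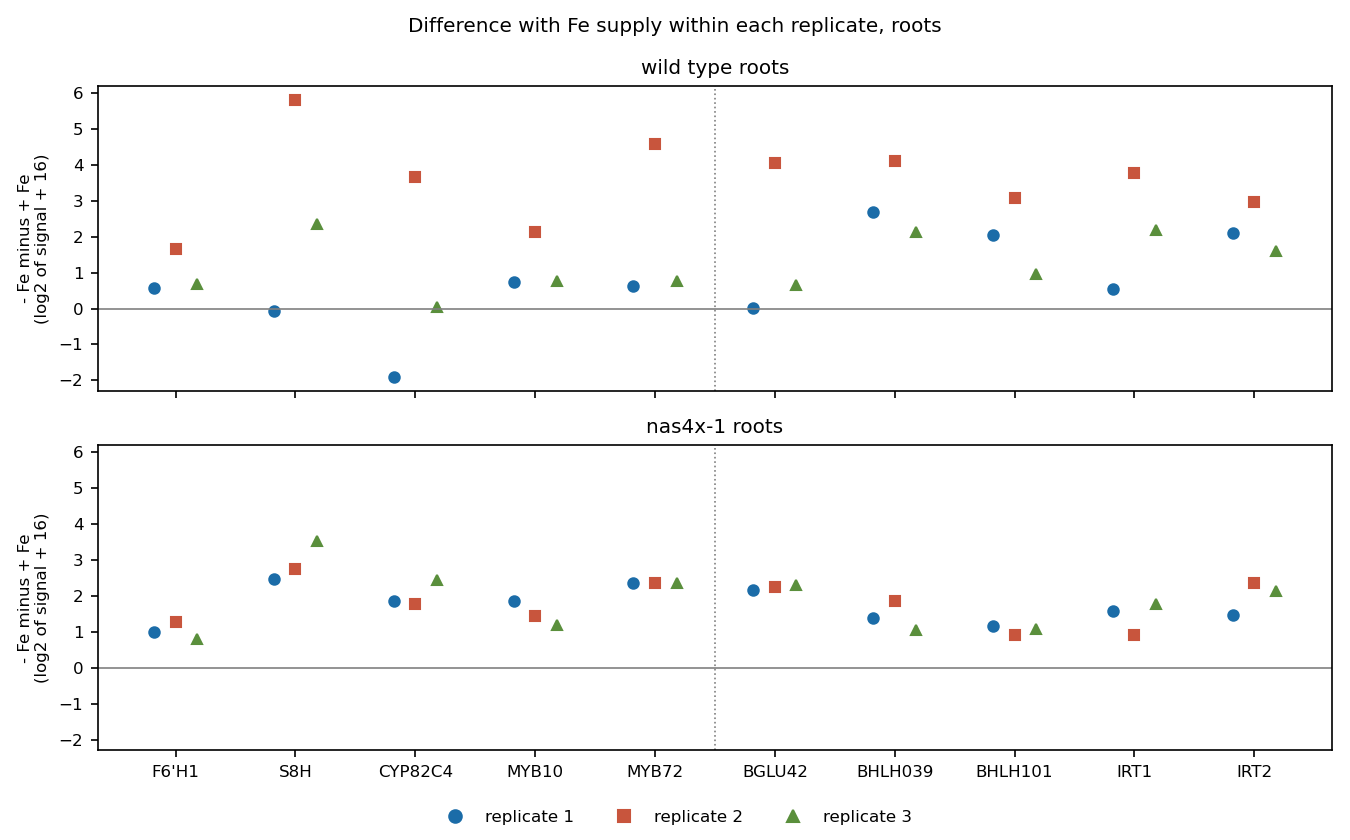
Difference between - Fe and + Fe within each replicate in wild type roots (top) and nas4x-1 roots (bottom), on the log2 scale of signal + 16, for the 5 genes (left of the dotted line) and for BGLU42, BHLH039, BHLH101, IRT1 and IRT2. Each point is 1 pair of arrays. In nas4x-1 all differences are above 0, whereas in wild type S8H runs from -0.07 to 5.80 and CYP82C4 from -1.91 to 3.66.

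Replicate 2 was not the only array of the wild type roots to differ from its group. Replicate 1 at + Fe had S8H and CYP82C4 signals of 127.7 and 108.3, each above both other + Fe arrays, and an IRT1 signal of 1262 against 221.9 and 249.2. Over all probe sets, 36 lay at least 2 log2 units above both other arrays in replicate 2 at - Fe, 83 in replicate 1 at - Fe and 73 in replicate 1 at + Fe. In nas4x-1 roots such probe sets numbered 0 to 26 per array.

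With sufficient Fe, roots of nas4x-1 already had higher signals of the 3 enzyme genes and MYB72 than roots of wild type. From the signals given above, the lowest nas4x-1 array exceeded the highest wild type array for F6'H1 (1886 against 1447), S8H (144 against 127.7), CYP82C4 (122.2 against 108.3) and MYB72 (17.43 against 13.4), but not for MYB10 (29.56 against 34.42). The log2 fold changes were 0.68 (SE 0.30) for F6'H1, 2.05 (SE 0.88) for S8H, 1.42 (SE 0.78) for CYP82C4, 0.46 (SE 0.32) for MYB10 and 0.85 (SE 0.71) for MYB72. Separation of this kind was seen for 3.23% of probe sets. None of the 5 passed the test (limma, adjusted p = 1 for each), 2 had an unadjusted p under 0.05 against 1.06% of probe sets, and 0.0308% of probe sets were called higher. For MYB72 both groups lay near or under the table's median, at 2.006 to 38.88. For S8H and CYP82C4 the gap between the groups was narrow because of wild type replicate 1. That array was also the highest of its group for MYB72 and for MYB10. The overlap of MYB10 rested on it, since the other wild type arrays (17.59 and 15.37) lay below all nas4x-1 arrays. In week 1 S8H was at 221.6 in nas4x-1 against 127.7, and CYP82C4 at 122.2 against 108.3. In weeks 2 and 3 the log2 differences were 3.0 and 2.43 for S8H and 2.19 and 1.92 for CYP82C4.

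At - Fe the same comparison rested on which wild type arrays were counted. CYP82C4 was higher in all 3 nas4x-1 arrays than in any wild type array (log2 fold change 2.85, SE 0.78), and the other 4 genes overlapped, with log2 fold changes of 0.74 (SE 0.30) for F6'H1, 2.29 (SE 0.88) for S8H, 0.73 (SE 0.32) for MYB10 and 1.22 (SE 0.71) for MYB72. In weeks 1 and 3 S8H was higher in nas4x-1 by 3.27 and 3.63 and MYB72 by 1.92 and 2.33, while in week 2 the differences were -0.04 and -0.60. Separation without overlap was seen for 3.01% of probe sets. None of the 5 genes passed (limma, adjusted p = 1 for each), 4 had an unadjusted p under 0.05 against 1.46% of probe sets, and 0.0396% of probe sets were called higher.

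Without replicate 2 of the wild type roots at - Fe, 3 of the 5 passed this comparison, where 0.0879% of probe sets were called higher. They were S8H (log2 fold change 3.55, limma adjusted p = 0.0468), CYP82C4 (3.94, adjusted p = 0.0152) and MYB72 (2.35, adjusted p = 0.0132). BGLU42 passed as well (2.54, adjusted p = 0.00126). The remaining wild type arrays were 2, and leaving the array out follows its values, so these calls describe replicates 1 and 3. Of the wild type responses to Fe, that of CYP82C4 turned from 0.59 to -0.49 without the array and that of S8H fell from 2.69 to 1.42.

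**Figure D3:**
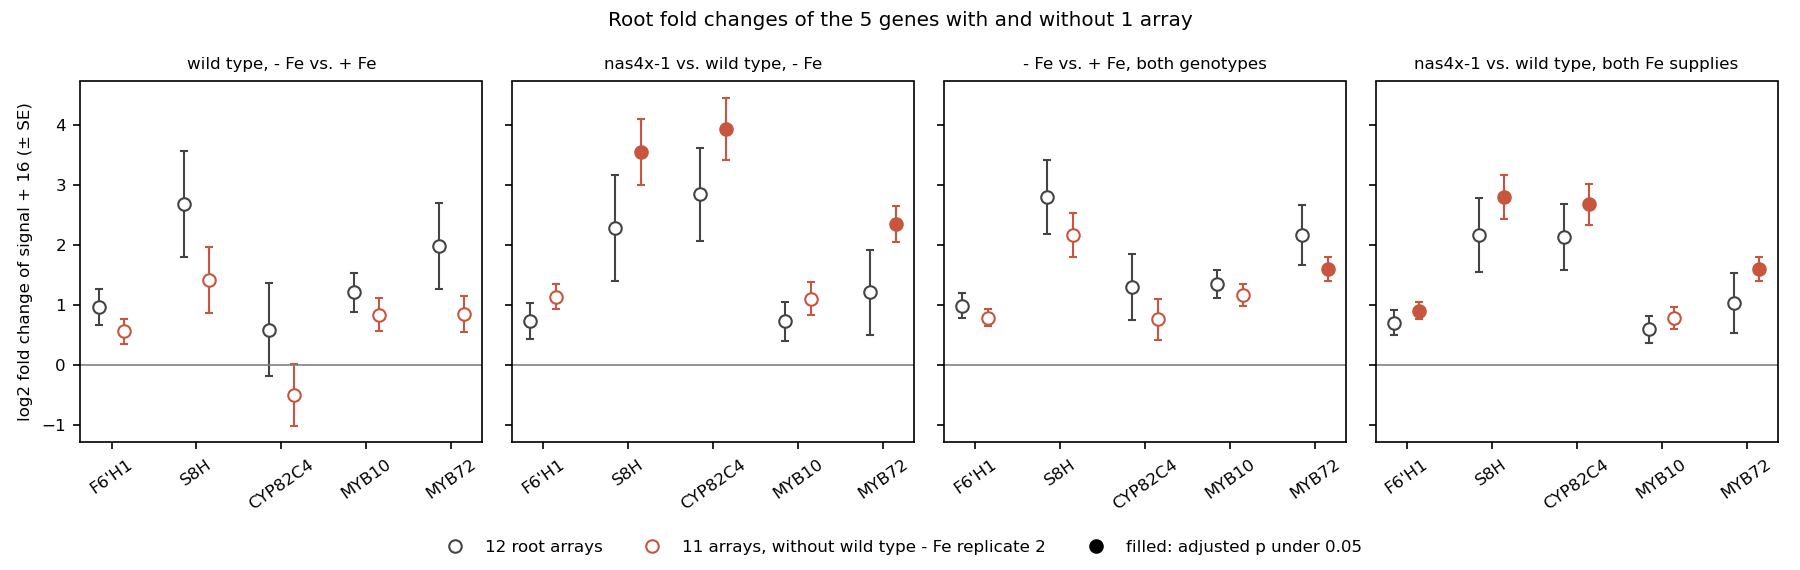
Log2 fold change of signal + 16 (y axis, with SE from limma) of the 5 genes in 4 root comparisons, from all 12 root arrays (dark) and without replicate 2 of the wild type roots at - Fe (red). Filled points have an adjusted p under 0.05. With all arrays no gene is filled. Without the array S8H, CYP82C4 and MYB72 are filled in the genotype comparison at - Fe, and MYB72 in that of Fe supply over both genotypes. In the genotype comparison over both Fe supplies F6'H1, S8H, CYP82C4 and MYB72 are filled. The array was singled out after its values were seen. It is the highest of its group for all 5 genes, so leaving it out raises the genotype differences by construction.

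Averaged over both genotypes, the 5 genes were higher at - Fe by 0.99 (F6'H1, SE 0.21), 2.80 (S8H, SE 0.62), 1.31 (CYP82C4, SE 0.55), 1.35 (MYB10, SE 0.23) and 2.17 (MYB72, SE 0.50) on the log2 scale. All 5 had an unadjusted p under 0.05, against 3.91% of probe sets, and none passed after adjustment (limma, adjusted p from 0.078 for MYB10 to 0.721 for CYP82C4), with 0.044% of probe sets called higher. With the harvest week as a block, F6'H1 rose by 0.99 (adjusted p = 0.0441) and MYB10 by 1.35 (adjusted p = 0.0209), where 0.33% of probe sets were called higher, and S8H, CYP82C4 and MYB72 did not pass. In an exact two-sided permutation test of each gene, exchanging Fe supplies within genotypes, p was 0.005 for F6'H1, MYB10 and MYB72, the smallest that the 400 arrangements allow, 0.01 for S8H and 0.09 for CYP82C4. These exact p-values are not adjusted. Since replicate numbers pair the arrays, an exchange within weeks only, chosen after the data were seen, was also made, and its 64 arrangements gave an exact p of 0.0312 for F6'H1, MYB10 and MYB72, the smallest they allow, 0.0625 for S8H and 0.219 for CYP82C4. Without replicate 2 of the wild type roots at - Fe, MYB72 passed in limma (1.61, adjusted p = 0.0272, 0.0484% of probe sets called higher), and without replicate 3 of that group MYB10 did (1.53, adjusted p = 0.0113, 0.422% called higher). Replicate 3 was the lowest of its group for MYB10, so leaving it out raises that difference by construction. With arrays left out in turn, the limma adjusted p ran up to 0.283 for MYB10 and 0.566 for MYB72. These 2 calls are no independent support for an Fe response.

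Averaged over both Fe supplies, the genes were higher in nas4x-1 by 0.71 (F6'H1, SE 0.21), 2.17 (S8H, SE 0.62), 2.14 (CYP82C4, SE 0.55), 0.60 (MYB10, SE 0.23) and 1.03 (MYB72, SE 0.50). None passed (limma, adjusted p from 0.748 to 1), 4 had an unadjusted p under 0.05 against 1.51% of probe sets, and 0.0791% of probe sets were called higher. The exact permutation p, exchanging genotypes within Fe supplies, was 0.005 for CYP82C4, 0.015 for F6'H1, 0.025 for S8H, 0.035 for MYB10 and 0.12 for MYB72. Within weeks the exact p was 0.0312 for F6'H1 and CYP82C4, 0.0625 for S8H and 0.0938 for MYB10 and MYB72. Without replicate 2 of the wild type roots at - Fe 4 of the 5 passed, where 0.149% of probe sets were called higher. They were F6'H1 (0.91, limma adjusted p = 0.0276), S8H (2.80, adjusted p = 0.01), CYP82C4 (2.68, adjusted p = 0.00909) and MYB72 (1.60, adjusted p = 0.00765), and MYB10 did not pass. That array was singled out after its values were seen and is the highest of its group for these genes. Leaving it out therefore raises the differences by construction, and these calls are no independent support for them. All root comparisons share arrays, so their values are not independent of each other.

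The genes around the 5 in the pathway were followed as lists, of which only some members could be matched to a probe set. Of the 22746 probe sets 8634 were matched to no gene and 503 to several. A gene without a match may therefore still be on the array. Of the general phenylpropanoid steps before feruloyl-CoA, 2 of 13 genes were measured and neither passed in the root comparisons of Fe supply and genotype. They were HCT and PAL2, a phenylalanine ammonia-lyase of the entry step, and PAL2 had 1033, 2480 and 794.8 in wild type roots at - Fe and 721.9, 895 and 825.9 at + Fe. PAL2 too was highest in replicate 2, but so it was in nas4x-1 roots at - Fe (1026, 2361 and 1528) and in both root groups at + Fe. In leaves PAL2, which is also on the list selected by the study, rose at - Fe averaged over genotypes (log2 fold change 1.04, SE 0.15, limma adjusted p = 0.0123). Of the other genes of coumarin synthesis, sugar removal and export, 5 of 9 were measured and none passed in the root comparisons of Fe supply and genotype, with a median log2 difference with Fe supply of 0.17 averaged over genotypes against -0.01 over all probe sets. BGLU42 had the largest difference in this list (1.90, SE 0.49, limma adjusted p = 0.39).

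F6'H2, the close paralog of F6'H1, stayed between 16.62 and 33.21 in all 12 root arrays, under the table's median, with means of 26.9 at + Fe and 20.96 at - Fe in wild type. COSY, which closes the lactone ring of coumarins, had signals from 156 to 659.1 in roots with a log2 difference of 0.17 (SE 0.34) with Fe supply. BGLU23, an abundant root glucosidase of the endoplasmic reticulum bodies, had 1933 to 3556. Of these, COSY was highest in replicate 2 of wild type at - Fe, and in nas4x-1 at - Fe replicate 2 was its highest array too (234, 572.2 and 278.9). BGLU23 had 2040 in replicate 2 of wild type at - Fe, below the other 2 arrays of that group. CYP82C2, a paralog of CYP82C4 with another substrate, was at or below 15.47 in 11 root arrays and at 226.3 in replicate 1 of wild type at - Fe, the array in which CYP82C4 was at 17.06.

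Of the bHLH factors upstream, 8 of 11 were measured. BHLH039 rose with Fe deficiency averaged over genotypes (log2 fold change 2.20, SE 0.29, limma adjusted p = 0.0251), and BHLH101 was higher in nas4x-1 averaged over Fe supplies (1.65, SE 0.26, adjusted p = 0.038). These were the only calls of the list in the root comparisons, and the median log2 difference with Fe supply over all 8 was 0.13. Of Fe uptake genes 2 of 5 were measured. IRT2 passed in both averaged comparisons (2.11 at - Fe, adjusted p = 0.0085, and 1.41 in nas4x-1, adjusted p = 0.0339), and the main Fe transporter gene IRT1 passed in neither (1.79, adjusted p = 0.256, and 1.12, adjusted p = 1). BHLH039, BHLH101 and IRT2 were, like F6'H1, on the list that the study selected on these arrays.

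All 4 nicotianamine synthase genes were measured, and NAS1 was lower in roots of nas4x-1 averaged over Fe supplies (log2 fold change -2.87, limma adjusted p = 0.0158). NAS4, the described target of both MYB factors, was higher at - Fe in wild type roots in all 3 weeks. It had 35.32, 5.877 and 5.946 at + Fe and 217.5, 57.03 and 11.8 at - Fe, with its highest signal in replicate 1, where MYB72 was at 29.07. In nas4x-1, in which the gene carries an insertion, NAS4 stayed between 16.61 and 36.84 in roots. Of 5 further MYB factors of the same family and 6 genes of endodermis and stele none was matched to a probe set. The summed root hair signals overlapped between all 4 root groups, with 162.2 to 377 in wild type at - Fe and 195.6 to 451.1 in nas4x-1 at - Fe, and their part in the differences was not tested.

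The 5 genes followed each other over the 12 root arrays, with Pearson r of the log2 signals from 0.754 (CYP82C4 and MYB10) to 0.954 (S8H and MYB72). These values are descriptions, since the arrays share 4 group means, harvest weeks and the array that stands apart. Among 5141 probe sets of 1 gene each with a root group mean of at least 64, the closest to MYB72 was BGLU42 (r = 0.99), followed by the cytochrome P450 gene CYP71B5 (0.967) and AT3G61930 (0.966). AT3G61930, a gene without a symbol, was among the closest 3 for F6'H1 (0.963), S8H (0.974) and MYB10 (0.952) too.

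The genes closest to CYP82C4 were AT1G73120 (r = 0.921), AT5G38820 (0.906) and AT1G60610 (0.87), of which AT5G38820 was also the closest to S8H (0.977). The glutathione transferase gene GSTL1 was close to F6'H1 (0.962) and S8H (0.966), IRT2 to F6'H1 (0.957), and AT3G06890 (0.969) and AT2G29995 (0.954) to MYB10. CYP71B5 had 2.233, 349.1 and 13.25 in wild type roots at - Fe and 102.9, 270.9 and 247.2 in nas4x-1 at - Fe, and AT3G61930 had 121.4, 741.8 and 155 against 527.1, 795.5 and 753.8. Both had the high replicate 2 of S8H and MYB72, which follows from their selection for likeness over these same arrays.

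In leaves 4 of the 5 genes were near the bottom of the signal range in every group. S8H did not exceed 23.02 in any of the 12 leaf arrays, CYP82C4 did not exceed 5.285 and MYB72 did not exceed 6.125. MYB10 lay between 8.6 and 25.77. All of these signals were under the table's median. F6'H1 was the only member with leaf signals above the median, and among leaf groups only wild type at + Fe had none there.

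F6'H1 had 1.762, 0.5917 and 6.952 in wild type leaves at + Fe and 88.16, 53.6 and 43.76 at - Fe. The arrays did not overlap, and the log2 fold change was 2.0 (SE 0.46, limma adjusted p = 0.146), higher in 3 of 3 weeks. In nas4x-1 leaves it had 2.831, 51.31 and 49.42 at + Fe and 27.09, 38.19 and 80.72 at - Fe, with overlap (0.48, SE 0.46, adjusted p = 0.871). At + Fe, then, replicates 2 and 3 of nas4x-1 were in the range of the wild type at - Fe and replicate 1 was in that of the wild type at + Fe (nas4x-1 vs. wild type 1.21, SE 0.46, adjusted p = 0.849).

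No member passed a comparison of Fe supply or genotype in leaves. In wild type, where 0.136% of probe sets were called higher at - Fe, 1 of the 5 genes had an unadjusted p under 0.05 (4.54% of probe sets) and 1 was without overlap, both F6'H1, against 7.09% of probe sets without overlap. In nas4x-1, where 0.0308% were called higher, 0 genes had an unadjusted p under 0.05 (3.64% of probe sets) and only S8H was without overlap, against 5.61% of probe sets. Between genotypes 0.0132% of probe sets were called higher in nas4x-1 at + Fe and 0.022% at - Fe. The interaction for F6'H1 was -1.52 (SE 0.65, limma adjusted p = 0.835, 0.0396% of probe sets called lower), and in the averaged comparisons 0.171% were called higher at - Fe and 0.0484% in nas4x-1. The exact permutation p of F6'H1 in leaves was 0.035 for Fe supply (0.0625 within weeks) and 0.32 for genotype, and those of the other 4 genes ran from 0.08 to 0.855. Of the regulatory genes, BHLH039 had 4.025, 4.306 and 0.3333 in wild type leaves at + Fe and 818.5, 127.2 and 7.627 at - Fe. In nas4x-1 leaves it had 8.381, 5.438 and 5.806 at + Fe and 1023, 627.7 and 99.07 at - Fe. In week 3 of wild type leaves the log2 difference was 0.53 for BHLH039 and -0.27 for BHLH101. None of the 8 measured bHLH factors passed a leaf comparison of Fe supply or genotype.

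**Figure D4:**
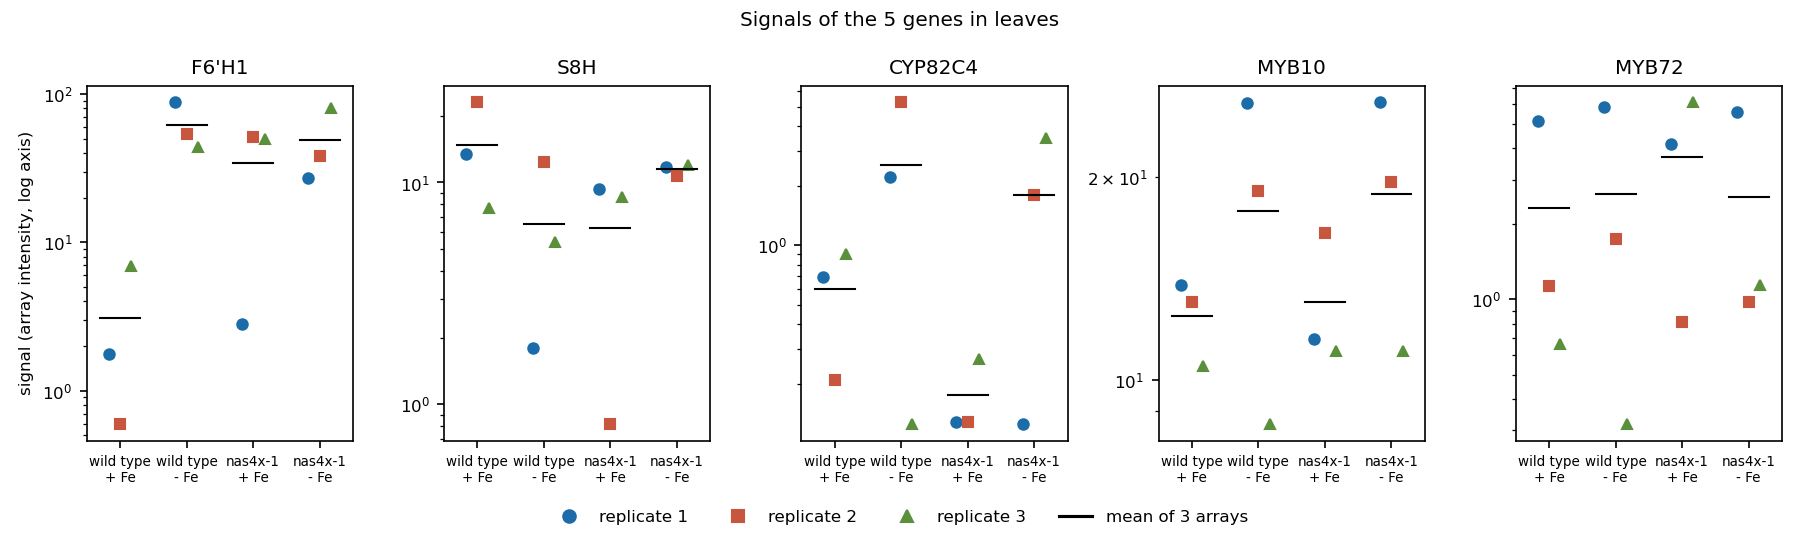
Signals of the 5 genes in each of the 12 leaf arrays (y axis, linear array intensity on a log axis, with its own scale for each gene) by genotype and Fe supply. Points are arrays, marked by replicate number, and bars are means of 3 arrays. F6'H1 separates wild type at + Fe (0.5917 to 6.952) from wild type at - Fe (43.76 to 88.16), and no signal of S8H, CYP82C4, MYB10 or MYB72 exceeds 25.77.

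Compared with roots of the same genotype and Fe supply, leaves had lower mean signals of all 5 genes in every pair of groups. At - Fe all 5 were lower in leaves in wild type (log2 fold changes from -5.13 for F6'H1 to -1.41 for MYB10, limma adjusted p from 7.79e-10 to 0.00332, 25.1% of probe sets called lower) and in nas4x-1 (-6.18 to -2.09, adjusted p from 3.69e-11 to 1.92e-05, 25.0% called lower). With only the arrays of the groups compared, CYP82C4 and MYB72 did not pass in wild type at - Fe (limma, adjusted p = 0.0673 and 0.0734). At + Fe 4 of 5 passed in nas4x-1, all but MYB72 (-1.06, adjusted p = 0.127, 25.4% of probe sets called lower). MYB10 (-0.84, adjusted p = 0.0198) did not pass there without replicate 1 or 3 of the leaves or replicate 2 of the roots (limma, adjusted p up to 0.0775). In wild type at + Fe 2 of 5 passed, F6'H1 (-6.16, adjusted p = 4.27e-11) and CYP82C4 (-1.84, adjusted p = 0.0147), where 25.5% of probe sets were called lower. Without replicate 1 of the wild type roots at + Fe, F6'H1 alone passed there and CYP82C4 did not (-1.31, adjusted p = 0.0995, 24.8% called lower). F6'H1 kept a log2 difference beyond 5 in all 4 pairs.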

How the data were processed

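RNA of 24 samples was hybridized to Affymetrix ATH1 arrays. The authors determined signals with the Affymetrix Microarray Suite and GCOS, scaled them to a target and normalized them by quantiles over all arrays, and the deposited intensity values are linear. Detection calls were not used here. Of the deposited probe sets, 22746 remained after controls were left out. The number of arrays, 3 per group, limits the precision.

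A further quantile normalization was applied within each organ (largest change 0.05092 on the log2 scale), 16 was added, and log2 values of the 12 arrays of an organ were fitted with 4 group means in limma 3.58.1 (R 4.3.3, intensity trend). Leaves were compared with roots on deposited values of all 24 arrays. P-values were adjusted by Benjamini-Hochberg over all probe sets, with a threshold of 0.05. Exact permutations (20 tests) are given unadjusted. Adjustment over the 20 had been planned, and its effect is given with the other alternatives. For a comparison of 3 arrays against 3 alone the smallest exact p would be 0.1.

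The members, the gene lists and the tests were chosen with earlier results of these data known. The text names the 5 genes in all comparisons, list genes that passed in roots or in leaves with Fe supply (up to 4 a list), otherwise the 2 with the largest root difference with Fe supply, and the 3 probe sets most like each gene. F6'H2, COSY, BGLU23, HCT, NAS4 and CYP82C2 were named after their values were seen, or for their roles. Replicate numbers mark harvest weeks. Residuals of arrays of the same week correlated at 0.212 to 0.64 in roots and 0.172 to 0.505 in leaves, whereas between weeks they reached no more than 0.211 and 0.121, so the numbers pair the samples. Alternatives were a replicate block, deposited values, offsets of 1 and 64, a table without the 40 percent of probe sets with the lowest mean signal, no intensity trend, only the groups compared, an analysis of variance with the larger of each probe set's own and an averaged variance, and leaving out each array. The block combined with leaving out replicate 2 of the wild type roots at - Fe was added after the data were seen. The exchange within weeks and the means without that array were likewise chosen after their values were in view. Names of neighbouring genes came from RefSeq. No sequences are shown.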

Additional observations from a re-analysis of the deposited data

Results flagged for a closer look

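In leaves the difference of S8H with Fe supply had opposite signs in the genotypes, in all weeks of each. It was lower at - Fe in all 3 weeks in wild type (-0.73, -0.46 and -0.15 on the log2 scale) and higher in all 3 weeks in nas4x-1 (0.14, 0.67 and 0.19). The interaction was 0.77 and did not pass (limma, adjusted p = 0.804), and all of these signals were at or below 23.02, under the table's median.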

How the results depend on the processing

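With the replicate block, 2 of the 5 genes passed in roots, - Fe vs. + Fe averaged over genotypes, in place of 0, and the block changed no other count of members. Without the dimmest 40 percent of probe sets, 1 passed there (MYB10). With only the groups compared in the fit, 2 passed in nas4x-1 roots, - Fe vs. + Fe, and 3 in place of 5 in leaves vs. roots, wild type - Fe. With an offset of 64, 1 in place of 2 passed in leaves vs. roots, wild type + Fe. Leaving out each array gave counts from 0 to 3 for nas4x-1 vs. wild type roots at - Fe, from 0 to 1 for root Fe supply averaged over genotypes, from 0 to 4 for root genotype averaged over Fe supplies, from 1 to 2 for leaves vs. roots, wild type + Fe, and from 3 to 4 for leaves vs. roots, nas4x-1 + Fe. In the root comparisons the counts of 3 and 4 came without replicate 2 of the wild type roots at - Fe, the array highest in its group for all 5 genes. The block with that array left out, an alternative chosen after seeing the data, gave 2 for nas4x-1 roots, - Fe vs. + Fe, 2 for nas4x-1 vs. wild type roots at - Fe, 2 for Fe supply averaged over genotypes and 4 for genotype averaged over Fe supplies. With it CYP82C4 in wild type roots had a log2 fold change of -0.72. For this block fit, the table without the dimmest 40 percent and the offset of 64, the shares of all probe sets called are not given. The same holds for leaves vs. roots, wild type - Fe, with only the groups compared. These counts are therefore not set against all probe sets and are no result about the members.

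Reversed signs were confined to values that had not passed. With arrays left out in turn, CYP82C4 in wild type roots, - Fe vs. + Fe, ran from -0.49 to 1.31, and the root interaction ran from -0.17 to 0.46 (F6'H1), -0.48 to 1.5 (S8H), -0.081 to 0.65 (MYB10) and -0.26 to 1.5 (MYB72). F6'H1 in nas4x-1 leaves, - Fe vs. + Fe, ran from -0.13 to 0.80. With an offset of 1 the interaction was -0.22 for S8H and -0.35 for MYB72, and with the larger of own and averaged variance it was -0.27 and -0.56. The causes were not tested. Of the other values under alternatives, 939 kept their direction and side of the threshold. Of the 20 exact permutation tests 9 had a p under 0.05. After the planned Benjamini-Hochberg adjustment over the 20, 5 did, without genotype for F6'H1, S8H and MYB10 in roots and Fe supply for F6'H1 in leaves. With exchange within weeks 5 did, without S8H for both factors, genotype for MYB10 and Fe supply for F6'H1 in leaves. Limits here are 3 arrays a group, arrays apart from their groups and low signals in leaves.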
